A study of Mus musculus with 12 samples.

Results

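The nuclear-encoded genes of the mitochondrial respiratory chain were examined for accessible chromatin in mouse hematopoietic stem cells (HSCs). They were 41 genes: 22 placed in complex I by their Nduf names, 4 for complex II, 6 for complex III, 5 for complex IV, cytochrome c (Cycs), and 3 for the assembly of complex IV. Members were the accessible regions within 10 kb of these gene bodies, which numbered 111 of the 71006 regions found in all 12 libraries together. Of these, 42 lay at a start of the gene itself (2 at Cox6c, 1 at every other gene), 22 at a start of another gene and 47 were distal, meaning that no annotated start lay within 1 kb of their summit. No measured change with age or genotype was a criterion for the genes, but they were chosen with earlier results of these data known.

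The assay was ATAC-seq: a transposase cuts and tags DNA where chromatin is open. The 12 libraries came from bone marrow HSCs of C57BL/6 mice in 4 groups of 3: Young WT and Young Mlkl-/- at 3 months of age, Aged WT and Aged Mlkl-/- at 18 months. Mlkl encodes a pseudokinase of necroptosis, an inflammatory form of cell death, and the comparisons ask how its loss and age relate to HSC chromatin. Per the study's methods, HSCs were sorted as lineage-negative, cKit+, Sca1+, Flk2-, CD48- and CD150+ cells, each library pooled several mice (more for young than for aged groups), and all were prepared on the same day. Mlkl-/- mice lacked the gene in every tissue, not in HSCs alone. Animals of both sexes were used in the study, and the labels give no sex.

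The respiratory chain passes electrons from NADH and succinate to oxygen and pumps protons across the inner mitochondrial membrane. Complex I oxidises NADH, complex II oxidises succinate, complex III passes electrons to cytochrome c, and complex IV, cytochrome c oxidase, reduces oxygen. Most subunits are encoded in the nucleus, and NRF1, GABPA and YY1 are transcription factors known to bind many of these promoters. Quiescent HSCs rely little on respiration, and their mitochondrial activity is known to change with age.

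For the members on which the results turn, the sequence 5′ of the annotated start is shown (mm10, the strand of the gene). Sdhb, the iron-sulfur subunit of complex II, and Ndufa1, a small membrane-arm subunit needed to assemble complex I, had the smallest p-values for age among the promoters. Cox7c, a small subunit of complex IV, had the highest-ranked promoter of the 41. Sdhb was chosen for printing after its values had been seen. Capitals mark CCGCCC, the reverse complement of the SP1 consensus GGGCGG.
Sdhb at chr4:140961003-140961202, plus strand: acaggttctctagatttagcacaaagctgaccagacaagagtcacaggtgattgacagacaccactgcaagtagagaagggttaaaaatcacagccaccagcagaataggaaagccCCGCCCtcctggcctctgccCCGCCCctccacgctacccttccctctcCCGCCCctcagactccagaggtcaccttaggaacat
Ndufa1 at chrX:37191164-37191244, minus strand: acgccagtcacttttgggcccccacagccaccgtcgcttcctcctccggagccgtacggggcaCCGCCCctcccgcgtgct
Cox7c at chr13:86046905-86047104, minus strand: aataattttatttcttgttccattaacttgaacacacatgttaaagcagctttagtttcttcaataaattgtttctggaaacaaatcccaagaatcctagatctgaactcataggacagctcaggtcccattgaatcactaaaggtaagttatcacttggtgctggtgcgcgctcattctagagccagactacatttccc
The capitals of Sdhb began 84, 64 and 36 bases 5′ of its start, and that of Ndufa1 18 bases 5′ of its start. The Cox7c stretch held none.

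Within 300 bp centred on each promoter summit, the consensus of NRF1, whose letters stand in capitals in the sites printed below, was found at 8 of 41 members (19.5%) and at 8.84% of the promoter regions of all protein-coding genes (n = 13249). The YY1 consensus AAGATGGCG was found at 5 members (12.2%) against 3.15%, and the GABPA (ETS) consensus CCGGAAGT at 4 (9.76%) against 7.06%. Any of the 3 was present at 15 members (36.6%) and at 17.5% of all promoters. SP1 letters were found at 26 members (63.4%) and 67.7% of all promoters, GCCAAT of NFY at 7 (17.1%) and 18.9%, TGACGTCA of CREB at 4 (9.76%) and 3.16%, CAAGGTCA of ERR at 1 (2.44%) and 0.717%, and TATAAA at 1 (2.44%) and 3.96%. Both strands were searched, overlapping matches of different motifs were each counted, and a match describes letters, not bound protein. The windows of members had a median GC content of 62.7% (all promoters, 65.0%) and a median ratio of observed to expected CpG of 0.862 (0.795).

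**Figure D1:**
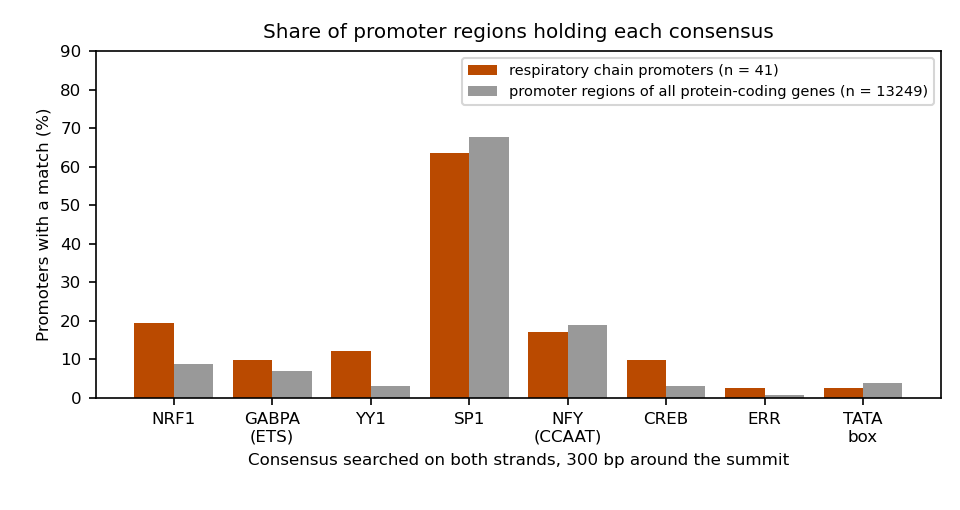
Percentage of promoter regions (y axis) that hold each consensus (x axis) in the 300 bp around the summit, for the 41 respiratory chain promoters and for all 13249 promoter regions of protein-coding genes. The bars for NRF1 (19.5% against 8.84%), YY1 (12.2% against 3.15%) and CREB (9.76% against 3.16%) stand above those of all promoters. They rest on 8, 5 and 4 members. The ERR bar (2.44% against 0.717%) rests on 1 member. The bars for SP1 (63.4% against 67.7%) lie close to each other.

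Matches within sight of the start are shown for 5 genes to let the letters be compared, each with 10 flanking bases, 5′ to 3′ on the strand of the gene, with the consensus in capitals. The first lines hold the NRF1 letters, which occurred 3 times at Sdha, the subunit that oxidises succinate, and at 2 positions of Uqcrc1, a core protein of complex III. Ndufa5, an accessory subunit of complex I, and Sdhd, a membrane anchor of complex II, held 1 each.
Sdha at chr13:74350231-74350260, minus strand: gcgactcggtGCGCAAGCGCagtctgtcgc
Sdha at chr13:74350276-74350305, minus strand: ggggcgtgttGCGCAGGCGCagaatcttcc
Sdha at chr13:74350319-74350348, minus strand: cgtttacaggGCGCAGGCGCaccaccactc
Uqcrc1 at chr9:108936643-108936672, plus strand: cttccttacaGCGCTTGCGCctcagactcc
Uqcrc1 at chr9:108936668-108936697, plus strand: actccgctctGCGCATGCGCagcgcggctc
Ndufa5 at chr6:24527697-24527726, minus strand: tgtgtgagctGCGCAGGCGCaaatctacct
Sdhd at chr9:50603909-50603938, minus strand: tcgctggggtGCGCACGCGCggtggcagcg
The YY1 letters are shown for Ndufa9, an accessory subunit of complex I, and again for Uqcrc1. Their centres lay 14 and 87 bases 3′ of the start.
Ndufa9 at chr6:126849097-126849125, minus strand: attgtgggagAAGATGGCGgccgccgtcc
Uqcrc1 at chr9:108936706-108936734, plus strand: cggaagttagAAGATGGCGgcgtccgcag

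The lists held 36805 to 63125 peak summits, of which 35714 to 61495 had a score (−log10 of the authors' q-value) of at least 3, and sequencing depth was unknown. Aged lists were mostly longer, at 47032 to 61495 summits of that score against 35714 to 56368 in young lists. Each list was therefore cut to its 35714 highest summits, and a region counts as called in a library when 1 of these lay in it. A summit of score 3 or more lay at the start of Mlkl in all 12 libraries, and 1 among the 35714 kept in 5 young libraries (3 of them Mlkl-/-) and in 3 aged libraries (2 of them Mlkl-/-), and the genotypes differed by 0.32 ± 0.27 in normal score over both ages (limma adjusted p = 0.873). Whether the deleted part of Mlkl includes this region is not given in the sources used here, so it does not check the genotype labels. Of 10 HSC marker genes, Kit, Hlf and Meis1 were called at their starts in all 12 libraries, and Slamf1 (CD150) and Mecom in none. Among markers of other cells, no start of 5 neutrophil and monocyte genes was called in any library, 0 or 1 of 5 T cell genes and 1 of 5 B cell genes (Ebf1, in all 12) was called per library, and 1 to 3 of 5 erythroid genes were called. Of 5 non-hematopoietic genes, none was called in young and 0 to 2 in aged libraries. The part of these signals in the results below was not tested.

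Promoters of the respiratory chain were called in every group. With all summits of score 3 or more, the promoter of each of the 41 genes was called in all 12 libraries, against 49.2% of 21911 protein-coding genes. In the equal-length lists 32 of 41 (78.0%) were called in all 12, against 42.2%. The median rank of the 41 promoters within a list, as a percentile of the 71006 regions where 100 is the highest score and regions not called share a value of 28.3 to 30.0, was 88.1 to 91.8 in the 12 libraries. The median over promoter regions of all protein-coding genes was 79.8 to 84.8. With each promoter averaged over the 12 libraries, the median was 89.6 for the 41 and 81.3 for all protein-coding genes. It was 89.5 for promoters of protein-coding genes called in all 12 equal-length lists. The 41, of which 32 were called in all 12, thus ranked much like promoters called that regularly. Summits lay close to the annotated start, from −273 to 292 bases from it (negative is 5′), and 37 of 41 within 150 bp. The regions were 533 to 1530 bp wide (median 854, against 871 for all promoters). At 19 promoters (46.3%) another gene started within 1 kb, against 27.9% of all promoters, and the lists cannot assign such a summit to either gene.

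**Figure D2:**
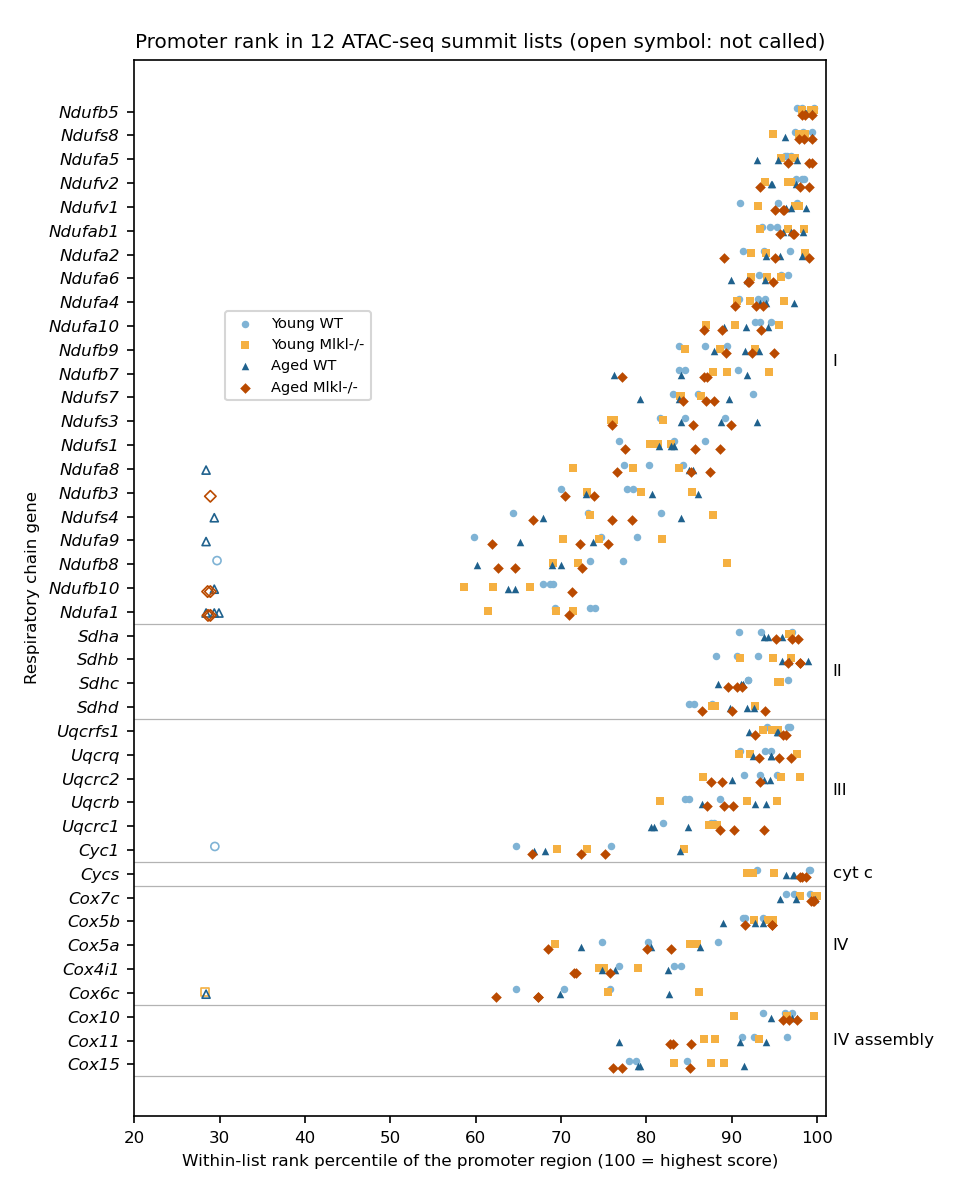
Rank percentile (x axis, 100 is the highest score in a list) of each of the 41 promoters (y axis, grouped by complex and ordered by mean rank within it) in the 12 libraries, coloured by group, with open symbols for libraries in which it was not called. Most promoters lie above 80, and open symbols near 29 are seen for 9 genes, 5 of them at Ndufa1.

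Within complex I, 15 of 22 promoters were called in all 12 equal-length lists, and mean percentiles ran from 52.9 to 98.8. The highest was Ndufb5, a membrane-arm subunit that shares its promoter with the mitochondrial ribosomal protein gene Mrpl47. Its percentiles were 99.7, 97.7 and 98.2 in Young WT, 99.3, 98.3 and 99.6 in Young Mlkl-/-, 98.7, 99.4 and 98.6 in Aged WT and 99.5, 98.3 and 98.6 in Aged Mlkl-/- libraries. The groups overlapped throughout. The lowest was Ndufa1, described with age below.

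Besides Ndufa1, 6 complex I promoters were missed by 1 or more equal-length lists. Ndufb10, a membrane-arm subunit, was called in 9 libraries, with percentiles of 68.7, 69.1 and 67.9 in Young WT, 66.3, 58.6 and 62.1 in Young Mlkl-/-, 29.4, 64.6 and 63.8 in Aged WT and 28.6, 71.2 and 28.9 in Aged Mlkl-/-. All 3 misses were in aged libraries (change with age −0.46 ± 0.26, limma adjusted p = 0.293). Ndufb8 was missed in Young WT 2 and otherwise lay between 60.2 and 89.4. Ndufa9 and Ndufa8, accessory subunits, were both missed in Aged WT 3 and otherwise lay between 59.8 and 81.8 and between 71.4 and 87.5. Ndufs4, a subunit of the arm that binds NADH, was missed in Aged WT 1 and otherwise lay between 64.4 and 87.8, and Ndufb3 was missed in Aged Mlkl-/- 3. Counted over all complexes, 40 or 41 promoters were called in each young and 37 to 40 in each aged library. Promoter regions of any gene held 38.8% to 45.4% of the summits used in young and 39.1% to 44.5% in aged libraries, and the part of that share in the counts was not tested. The share of all protein-coding promoters called per library was not computed. The counts are thus not shown to be particular to these genes.

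All 4 complex II promoters were called in every library, at mean percentiles of 89.3 to 95.5. The highest was Sdha, at 90.9 (lowest), 96.8 (median) and 97.1 (highest) in the 6 young and 93.8 (lowest), 95.6 (median) and 97.7 (highest) in the 6 aged libraries, and the lowest Sdhd, at 84.9 (lowest), 87.7 (median) and 92.7 (highest) in young and 86.5 (lowest), 90.9 (median) and 93.9 (highest) in aged libraries. Of 6 complex III promoters 5 were called in all 12. Uqcrfs1, which encodes the Rieske iron-sulfur protein, ranked highest, at 93.6 (lowest), 95.0 (median) and 96.9 (highest) in young and 92.1 (lowest), 95.4 (median) and 96.4 (highest) in aged libraries. Cyc1, the cytochrome that hands electrons to cytochrome c, ranked lowest. It was missed in Young WT 1, lay at 75.9 and 64.8 in the other Young WT libraries, and lay at 69.6, 73.0 and 84.4 in Young Mlkl-/-, 66.8, 84.0 and 68.1 in Aged WT and 75.2, 72.3 and 66.6 in Aged Mlkl-/- libraries. Its 11 called values overlapped between all groups.

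In complex IV 4 of 5 promoters were called in all 12 lists, and mean percentiles ran from 64.9 at Cox6c to 98.5 at Cox7c. The Cox7c promoter lay at 97.3, 96.4 and 99.2 in Young WT, 99.8, 99.95 and 98.0 in Young Mlkl-/-, 95.7, 97.6 and 99.7 in Aged WT and 99.2, 99.6 and 99.6 in Aged Mlkl-/- libraries. Cox6c was missed in Young Mlkl-/- 2 and Aged WT 3, and its 10 called values ran from 62.3 to 86.1. The 3 assembly genes, Cox10 and Cox15 for heme a synthesis and Cox11 for copper delivery, were called in all 12, as was Cycs.

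Age was compared first over both genotypes, with limma over all 37876 regions called in at least 3 lists. Ranks were turned into normal scores, the values of a standard normal distribution at those ranks. Regions not called in a list share a score of −0.57 to −0.52, so a change can hold a step between called and not called. Of the 111 regions near members, 76 were tested: all 41 main promoters, 17 distal regions and 18 promoters of other genes. None passed an adjusted p under 0.01, where 2.72% of all tested regions did (1.71% higher and 1% lower in aged HSCs). At an adjusted p under 0.05, 2 members passed, both promoters (background 7.77%, and 2.27% among promoters of protein-coding genes). An unadjusted p under 0.05 was found for 8 members (background 22.1%), 4 of them among the 41 promoters (background 10.9%). The 41 promoters had a median change of −0.03 (18 positive), against −0.04 over 11439 promoters of protein-coding genes (42.4% positive), and 40 of 41 lay within 0.5 of 0 (94.4% of all promoters). That median was 0.02 with the length of each list as a covariate, so it carries no direction. Because each library is a pool of cells, fewer cells with an open region and less opening per cell cannot be told apart.

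**Figure D3:**
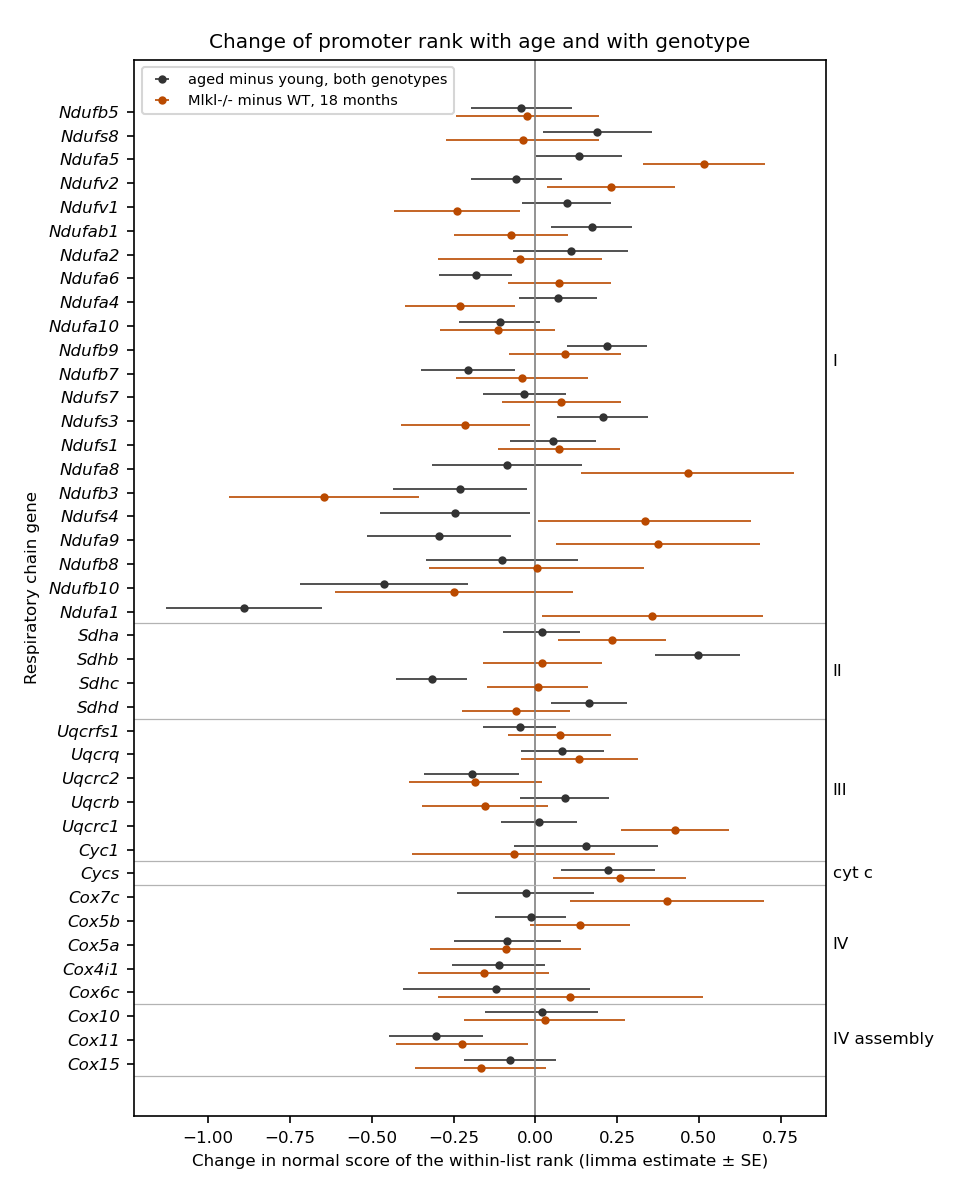
Change of each promoter (y axis, by complex) in normal score of its rank, as limma estimate ± SE (x axis), between aged and young libraries (black, n = 6 and 6) and between Aged Mlkl-/- and Aged WT libraries (orange, n = 3 and 3). Most estimates lie within 0.5 of 0, and Ndufa1 (−0.89 with age) and Ndufb3 (−0.65 with genotype, −0.27 without Aged Mlkl-/- 3) lie furthest to the left.

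The Sdhb promoter (chr4:140961017-140961736, summit in the UTR 68 bases 3′ of the start) had percentiles of 88.1, 93.1 and 90.6 in Young WT and 94.9, 97.0 and 91.0 in Young Mlkl-/- libraries. In Aged WT libraries they were 98.9, 96.7 and 95.8, and in Aged Mlkl-/- 98.0, 98.0 and 96.6. The aged values lay above all young values but that of Young Mlkl-/- 2, with which they overlapped. The change was 0.50 ± 0.13 (SE, limma adjusted p = 0.0238), with 0.63 ± 0.18 in WT and 0.36 ± 0.18 in Mlkl-/- mice. With list length as a covariate the change was 0.40 (limma adjusted p = 0.247). Leaving out 1 library gave 0.41 to 0.56, with an adjusted p of 0.0526 to 0.0653 without Young WT 1, Young Mlkl-/- 3, Aged WT 1, Aged Mlkl-/- 1 or Aged Mlkl-/- 2.

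The Ndufa1 promoter (chrX:37190806-37191504, shared with the head-to-head gene Rnf113a1) was called in all 6 young libraries, at 74.0, 73.4 and 69.3 in Young WT and 71.4, 61.5 and 69.3 in Young Mlkl-/-. Of the aged libraries it was called in Aged Mlkl-/- 1 alone, at 70.9, which is within the young range. The change was −0.89 ± 0.24 (SE, limma adjusted p = 0.0279), and without Aged Mlkl-/- 1 it was −1.07 (adjusted p = 0.00896), past the threshold of 0.01. In the lists of full length the same promoter was called in all 12 libraries, and the change was −0.49 (adjusted p = 0.127). With list length as a covariate the change was −0.92 (limma adjusted p = 0.163). Leaving out 1 of the other libraries gave changes of −0.93 to −0.79, with an adjusted p of 0.0526 to 0.0706 without Young WT 1, Young WT 2, Young Mlkl-/- 1, Aged WT 1, Aged Mlkl-/- 2 or Aged Mlkl-/- 3. In 5 aged libraries its summit was thus present but ranked below the 35714 kept, and a region not called is not shown to be closed.

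The Sdhc promoter, of the other membrane anchor of complex II, lay at 91.9, 91.9 and 96.6 in Young WT and 95.7, 95.4 and 95.7 in Young Mlkl-/-, and at 88.4, 91.1 and 91.3 in Aged WT and 90.6, 89.6 and 91.2 in Aged Mlkl-/- libraries. It was the 1 member of 76 whose aged values were all below the young ones (background 1.76%), and no member had aged values all above (background 2.12%). The change was −0.32 ± 0.11 (limma adjusted p = 0.0858). The complex II genes thus did not share a sign, with Sdhb above 0, Sdhc below 0, and with Sdha at 0.02 ± 0.12 and Sdhd at 0.16 ± 0.12 (unadjusted p in limma of 0.872 and 0.174). Beside these 3, the members with an unadjusted p under 0.05 were the Cox11 promoter (−0.30 ± 0.14, limma adjusted p = 0.222), the promoter of Tecr near Ndufb7 (−0.52 ± 0.24) and 3 distal regions.

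By complex, the median change with age was −0.05 for complex I (9 of 22 positive), 0.09 for complex II (3 of 4), 0.05 for complex III (4 of 6), −0.09 for complex IV (0 of 5) and −0.08 for its assembly genes (1 of 3). The 5 changes of complex IV were small, from −0.12 to −0.01, and none had an unadjusted p under 0.05. Ndufa4, counted with complex I by its name alone, had a change of 0.07 ± 0.12. Grouping by name does not settle which complex holds its product. Cycs had a change of 0.22 ± 0.14.

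**Figure D4:**
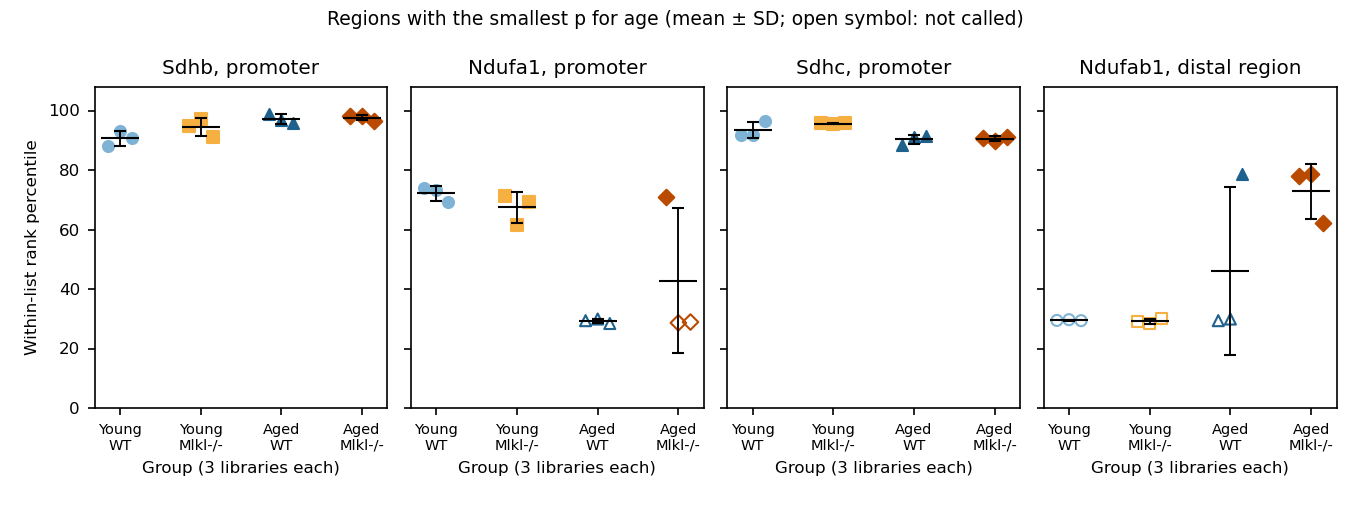
Rank percentile (y axis) in each of the 12 libraries, by group (x axis), for the 3 promoters and the distal region with the smallest p-values for age, with mean ± SD (n = 3) and open symbols where the region was not called. Ndufa1 is not called in 5 of 6 aged libraries, the Ndufab1 region is called in 4 aged and 0 young libraries, and the Sdhb and Sdhc promoters are called in all 12.

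Distal regions were called less regularly than promoters. Of 47, 25 had their summit in an intron, 4 in a UTR and 2 in a coding exon, and 21 were called in none and 5 in all 12 equal-length lists. With all summits of score 3 or more, 8 were called in all 12 lists and 13 in just 1. The number called per library was 9 to 15 in Young WT, 10 to 13 in Young Mlkl-/-, 10 to 14 in Aged WT and 13 to 17 in Aged Mlkl-/- libraries, so the groups overlapped. As a share of the 47 this was 19.1% to 36.2% per library, against 29.5% to 35.8% of all 52638 distal regions. The 17 tested had a median age change of 0.16 (13 positive), against 0.03 over 23927 distal regions (52.7% positive). They include the Ndufab1 region described below, which met the minimum of 3 lists through aged libraries alone. The median was 0.27 without Young WT 2, when 15 were tested.

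**Figure D5:**
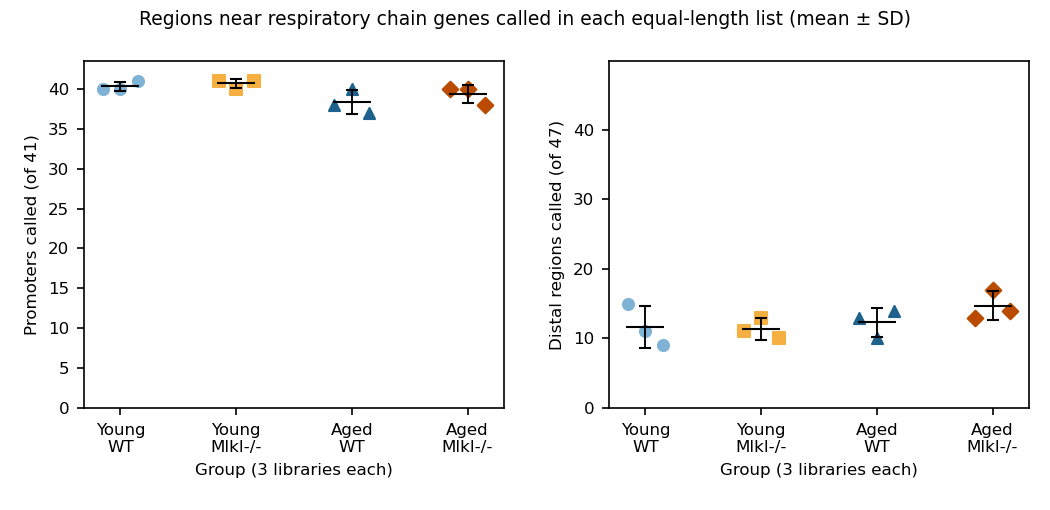
Number of promoters (left, of 41) and distal regions (right, of 47) near respiratory chain genes called in each equal-length list (y axes), by group (x axes), with mean ± SD (n = 3). Promoters called run from 37 to 41 and distal regions from 9 to 17, with groups that overlap or touch. The share of all protein-coding promoters called per library was not computed, so the promoter counts are not shown to be particular to these genes.

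In all, 3 distal regions had an unadjusted p under 0.05 for age, all with a change above 0 and none past an adjusted p under 0.05. The region chr7:122080965-122081537, within 10 kb of Ndufab1 and in a UTR of Ubfd1, was not called in any young library. It was called in Aged WT 3, at 78.7, and in all Aged Mlkl-/- libraries, at 77.8, 78.5 and 62.1, with a change of 0.81 ± 0.25 (limma adjusted p = 0.0549). This region thus met the minimum of 3 lists through aged libraries alone, so its p-values for age are not independent of that filter. The adjusted p was 0.0279 with lists of unequal length (change 0.89), 0.0497 with regions merged from the equal-length lists, 0.0485 without Aged WT 1, 0.0417 without Aged WT 2 and 0.268 with list length as a covariate (change 0.77). Ndufab1 encodes the acyl carrier protein of mitochondria, which is also a complex I subunit, and its own promoter, 20.6 kb away, had a change of 0.17 ± 0.12. The intergenic region chr2:36034857-36036176, 13.5 kb from the start of Ndufa8, was called in every library, at 75.2 (lowest), 84.6 (median) and 89.7 (highest) in young and 89.3 (lowest), 90.8 (median) and 93.6 (highest) in aged libraries (change 0.37 ± 0.13, limma adjusted p = 0.0903). The region chr1:171122825-171123440 in a UTR of Cfap126, 27.5 kb from the start of Sdhc, lay at 30.0 (lowest), 65.7 (median) and 85.3 (highest) in young and 75.7 (lowest), 83.7 (median) and 87.3 (highest) in aged libraries (change 0.56 ± 0.22, limma adjusted p = 0.127). The change was 0.09 with list length as a covariate (limma adjusted p = 0.904), 0.75 without Young Mlkl-/- 2 (adjusted p = 0.0274) and 0.36 without Young Mlkl-/- 3 (adjusted p = 0.221).

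Within each genotype the age comparison rested on 3 against 3 libraries. In WT mice no member passed (limma, background 0.203%), 3 had an unadjusted p under 0.05 (background 14.6%), and the lowest adjusted p was 0.0784. In Mlkl-/- mice no member passed (background 0.15%), 6 had an unadjusted p under 0.05 (background 14.4%), and the lowest adjusted p was 0.097. The 41 promoters had a median change of −0.02 in WT and −0.07 in Mlkl-/- mice, against −0.02 and −0.05 over all promoters of protein-coding genes.

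The effect of Mlkl loss at 18 months was compared between Aged Mlkl-/- and Aged WT libraries. No member passed in limma (background 0%, that is no region of the 37876), 3 had an unadjusted p under 0.05 (background 5.08%), and the lowest adjusted p was 0.821. The 41 promoters had a median change of 0.01 (22 positive), against −0.04 over all promoters (42.8% positive). That median ran from −0.05 without Aged WT 3 to 0.06 without Aged WT 2 and carries no direction. With 3 libraries a group, the SE of these changes was 0.15 to 0.40 for promoters, and differences of that size could not be resolved. Larger estimates did not pass either: changes over all 37876 regions ran from −1.35 to 1.37.

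The 3 promoters with the smallest p did not share a sign. Ndufa5 lay at 95.4, 93.0 and 97.6 in Aged WT and 99.1, 99.4 and 96.6 in Aged Mlkl-/- libraries (0.51 ± 0.19, limma adjusted p = 0.821), and the values overlapped. Uqcrc1 lay at 84.9, 80.6 and 80.9 and 93.8, 88.7 and 90.3 (0.43 ± 0.16, limma adjusted p = 0.87). In young mice its values were 87.5, 81.9 and 87.9 in WT and 87.9, 87.4 and 88.2 in Mlkl-/-. Ndufb3, a membrane-arm subunit that shares its promoter with Fam126b, lay at 72.9, 80.6 and 86.1 and 73.9, 70.5 and 28.9, the last of which was not called (−0.65 ± 0.29, limma adjusted p = 0.87). Without that library, Aged Mlkl-/- 3, its change was −0.27, and with lists of unequal length −0.40.

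Of distal regions, the Ndufab1 region above had a change of 0.71 ± 0.35 with genotype at 18 months, which was 0.48 without Aged WT 1, 1.15 without Aged WT 3 and 0.39 with a score of at least 5. That region met the minimum of 3 lists only with the Aged Mlkl-/- libraries. A region in an intron of Cox10 (chr11:64037312-64038116) lay at 65.6, 29.9 and 65.2 in Aged WT and 67.8, 83.5 and 84.1 in Aged Mlkl-/- libraries (0.72 ± 0.38, and 0.42 without Aged WT 2). An intergenic region near Uqcrfs1 (chr13:30530677-30531286) was called in none of the Aged WT and in 2 Aged Mlkl-/- libraries (0.61 ± 0.38). The last change was 0.17 with lists of unequal length, 0.38 without Aged Mlkl-/- 1 or without Young Mlkl-/- 3, and 0.91 without Aged Mlkl-/- 3. The limma adjusted p-values of these 3 regions were 0.87, 0.87 and 0.882.

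At 3 months no member passed between Young Mlkl-/- and Young WT libraries (limma, background 0%), and 2 had an unadjusted p under 0.05 (background 5.36%): Cycs (−0.59 ± 0.20) and Cox7c (0.69 ± 0.30). Over both ages no member passed (background 0%), and 3 had an unadjusted p under 0.05 (background 6.2%). No member passed for a difference of the age changes between genotypes (limma interaction, background 0%), and the 1 member with an unadjusted p under 0.05 (background 4.79%) was Cycs. The Cycs promoter, for the mobile carrier that also takes part in apoptosis, lay at 99.2, 93.0 and 99.0 in Young WT, 91.8, 95.0 and 92.4 in Young Mlkl-/-, 97.2, 97.3 and 96.3 in Aged WT and 98.3, 98.0 and 98.7 in Aged Mlkl-/- libraries. Young WT 2 and Young Mlkl-/- 2 bring the young groups into overlap. The difference between the age changes was 0.84 ± 0.29 (limma adjusted p = 0.964).

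Other genes of oxidative phosphorylation were listed apart. A promoter region was found at 15 of 15 other complex I genes, 8 of 8 other complex III and IV genes, 14 of 15 ATP synthase genes (Atp5pb was not matched in the annotation), 17 of 18 assembly factors and 12 of 12 regulators of mitochondrial biogenesis. They were called in all 12 equal-length lists at 14, 6, 12, 14 and 9 genes. None of these promoters passed an adjusted p under 0.01 in any of the 7 comparisons, in either direction. By list, 15, 7, 14, 17 and 12 genes were tested. At an adjusted p under 0.05 for age over both genotypes there were 2 (background 2.27% among promoters of protein-coding genes). They were Cox14, an assembly factor of complex IV (−0.46 ± 0.11, limma adjusted p = 0.0194), and Tfb2m, a transcription factor of mitochondrial DNA (−0.39 ± 0.12, limma adjusted p = 0.046). Their values under the alternatives, such as list length as a covariate, were not taken. Ppargc1a and Ppargc1b, coactivators of mitochondrial genes, were each called in 5 libraries, and Cox7b in 2.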

How the data were processed

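ATAC-seq had been done on 12 libraries of pooled mouse HSCs, 3 in each of 4 groups. The authors mapped the reads to mm10 with Bowtie2 2.5.3 and used MACS2 2.2.7.1 to call peaks library by library, without pooling replicates. The deposited lists give 1 summit a line, scored by the −log10 of the q-value from that caller. A score rises with the depth of its own library, and depth and background are unknown because the deposited lists hold no read counts, so no count model and no interval for counting error could be used. The lowest scores were 2.00 to 2.01 (a q-value of 0.01), looser than the cutoff in the study's methods, and the summits used here scored 3 or more (q-value 0.001 or less) and lay on chromosomes 1 to 19, X or Y.

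Summits were widened by 250 bp to either side and merged over the 12 lists (71006 regions) and placed by the GENCODE vM21 annotation of the same build. A promoter had its highest summit within 1 kb of a start in the basic annotation. Each list was then reduced to 35714 summits, the length of the shortest, with ties broken under a fixed seed, and normal scores of the ranks of all regions were compared in R 4.3.3 by limma 3.58.1, with moderated variances that follow a trend on mean rank, in 1 model with 7 contrasts over the 37876 regions called in at least 3 lists, with Benjamini-Hochberg adjustment over all of them. Group changes are relative ranks, not accessibility itself. The procedure was also run on simulated lists with the same noise in every library and no difference in depth or list length. That run therefore cannot speak to the effect of list length. Other steps used Python 3.11.15, numpy 2.4.6, scipy 1.17.1 and pandas 2.3.3.

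Samples were grouped by the title in the labels. Values, per library or as a range, are given for promoters not called in all 12 lists, for the highest and the lowest promoter of each complex, and for the 3 promoters and 3 distal regions with the smallest p for age and for genotype at 18 months, with Cycs added after its values had been seen. The gene, marker and motif lists and the members were chosen with earlier results of these data known. Alternatives were all deposited summits, a score of at least 5, lists of unequal length, a catalogue from the equal-length lists, windows of 100 bp, rank percentiles, other minimums of lists, separate fits, an adjusted p under 0.05, a replicate block, list length as a covariate, each library left out, the 9 libraries with an unexplained tag in the file name, regions within 2 kb and starts within 500 bp.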

Additional observations from a re-analysis of the deposited data

Results flagged for a closer look

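Summits with a score under 3, which no comparison used, were counted within 10 kb of the 41 genes and outside every region. There were 4 in the 12 lists, 1 in Aged WT 2 and 3 in Aged WT 3, and 0 in each of the other libraries. They are listed here because they lie in data outside the comparisons. Groups of 3 libraries are too small for a test of single outlying values.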

How the results depend on the processing

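No member region passed an adjusted p under 0.01 in any of the 7 contrasts under the alternatives run, with 2 exceptions for age over both genotypes: 2 regions (Sdhb and Ndufa1) passed an adjusted p under 0.05, and 1 (Ndufa1) passed 0.01 without Aged Mlkl-/- 1, so that leaving out 1 library gave 0 to 1. The number of genes with a promoter called in all lists was 32 to 41, and 41 with lists of unequal length. The median age change of distal regions moved to 0.268 without Young WT 2 (0.108 to 0.268 leaving out 1 library). The medians of promoters changed sign, from −0.03 to 0.02 for age with list length as a covariate and from 0.01 to −0.06 for genotype at 18 months with the 9 libraries whose file names carry the tag. Named changes kept their direction, the Ndufa1 change being −0.49 with unequal lists and −0.66 (adjusted p = 0.122) with a score of at least 5; the cause was not tested. With the replicate number as a block, 0 member regions passed in each contrast, and the limma adjusted p was 0.0284 for Sdhb and 0.039 for Ndufa1. The numbers share no stated origin: deviations of same-numbered libraries had correlations of −0.30 to 0.13 (18 pairs, median −0.01), and 4 of 12 libraries correlated best with their own number, so pairing is not shown. The 3 libraries without the tag, of which 2 were aged, correlated with one another at 0.101 to 0.307, and with the 9 others alone the adjusted p was 0.0323 for Sdhb and 0.0184 for Ndufa1. Separate fits gave no value for contrasts over all 4 groups.

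The number of libraries (3 per group) limits every comparison, the depth is unknown, and a score near the end of a list decides whether a region such as the Ndufa1 promoter is called. Aged lists were mostly longer, and with list length as a covariate the change was 0.40 for Sdhb and −0.92 for Ndufa1, with a limma adjusted p of 0.247 and 0.163.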
